A study of Mus musculus with 16 samples.

Results

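The mitochondrial genome of the mouse encodes mRNAs for the core subunits of the respiratory chain, together with the tRNAs that decode them. The members described here are the 35 genes of the mitochondrial chromosome (MT) whose symbol starts with mt-, other than the ribosomal RNAs mt-Rnr1 and mt-Rnr2. They comprise 13 mRNAs and 22 tRNAs among the 36722 genes of the deposited table. Of these, 7 mRNAs and 1 tRNA passed the filter on low values and were among the 13385 genes tested; the other 6 mRNAs and 21 tRNAs are described by their levels alone.

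RNA was measured by sequencing of poly(A)-selected RNA from lumbar dorsal root ganglia (DRG, levels L3 to L5), where the somata of sensory neurons sit among satellite glia and Schwann cells. All C57BL/6 mice received an injection of 20 µl of 2% carrageenan, an inflammatory agent, into the paw, and were treated intrathecally 6 days later. The fusion protein group (n = 6) received 1 µg of IL4-10 FP, in which the cytokines IL4 and IL10 are joined; the combination group (n = 5) received 0.5 µg each of unlinked IL4 and IL10; the vehicle group (n = 5) received PBS. Ganglia were taken 6 hours later, every group carried the paw inflammation, and no ganglia without carrageenan were analysed here. Whether the samples came from different mice is not stated, so p-values measure the spread between these samples. In bulk ganglia, fewer cells of a type and less RNA per cell cannot be told apart.

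Both strands of the mitochondrial genome are transcribed as long precursors, from which the mRNAs and rRNAs are released mostly by cutting out the tRNAs that lie between them. Most mature mitochondrial mRNAs then receive a short poly(A) tail, whereas tRNAs receive only a CCA end, and mt-Nd6, the sole mRNA encoded in the light-strand transcript, is known from human cells to lack a long tail. In sensory neurons, with their long axons, the respiratory chain supplies much of the ATP used for transport and excitability.

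The deposited values are on a variance-stabilised log2 scale. On it, 6.17 is taken here as the floor, the level of a gene without signal. Each value decodes to a whole number, called the scaled value here, which is 1 at that floor. The lowest value of the table was 5.99, and 34 values decode to 0. The scaling done before the transform is not stated, so the scaled value is treated as a normalised abundance and not as a read count. The read depth of the libraries is unknown. Counted in units of 1000000, the sum of scaled values was 17.8 ± 0.76 in fusion protein, 19.6 ± 0.98 in combination and 17.8 ± 0.6 in vehicle libraries (SD, n = 6, 5 and 5). Defining markers of sensory neurons were present in every library: the 10 markers summed to scaled values of 219918 to 347271 in fusion protein, 250019 to 299836 in combination and 226054 to 300056 in vehicle libraries. The 6 skeletal muscle markers summed to 39 to 833 in fusion protein, 24 to 973 in combination and 40 to 3520 in vehicle libraries, and none of the 5 that were tested passed in any of the 3 comparisons.

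The 13 mRNAs fell into abundant genes, mt-Nd6 at a low level, and genes at the floor. The abundant ones were mt-Nd1, mt-Nd2, mt-Nd4 and mt-Nd5 (subunits of complex I, the NADH dehydrogenase), mt-Cytb (cytochrome b of complex III) and mt-Co1 (the catalytic subunit of cytochrome c oxidase, complex IV). These 6 mRNAs had deposited log2 values between 15.99 and 18.52 in the 16 libraries. Together they held 5.20% ± 0.95 of the scaled sum in fusion protein, 5.92% ± 0.62 in combination and 5.33% ± 0.57 in vehicle libraries (SD, n = 6, 5 and 5), with overlapping ranges of 4.19 to 6.74% in fusion protein, 5.18 to 6.55% in combination and 4.59 to 6.02% in vehicle libraries.

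The mRNAs at the floor were mt-Co2 and mt-Co3 (the other mitochondrially encoded subunits of complex IV), mt-Atp6 and mt-Atp8 (subunits of the ATP synthase, complex V), and mt-Nd3 and mt-Nd4l of complex I. mt-Nd4l was at 6.17 in all 16 libraries. mt-Co2, mt-Atp6 and mt-Co3 were each above the floor in 1 library and mt-Nd3 in 2, with scaled values of at most 2. mt-Atp8 was above it in 2 libraries, with the highest scaled value of the 6 genes, 12, in combination replicate 5. Thus neither ATP synthase mRNA and only 1 of the 3 complex IV mRNAs could be compared between groups.

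The sequences of the mRNAs were set beside the GENCODE M21 transcripts of GRCm38, since reads that match 2 genes equally well are often left out of counts. How the authors treated such reads is not given in the sources used here. At an identity of at least 99% over at least 40 bases, 99.6% of the bases of mt-Co2 were found in the pseudogene Gm28661, 99.6% of mt-Atp6 in Gm10925, 99.9% of mt-Co3 in Gm28437, 99.1% of mt-Nd3 in Gm28438 and 294 of the 297 bases of mt-Nd4l in Gm10222. All of these copies lie side by side on the minus strand of chromosome 1. Identity was 100% for each, apart from Gm28438, where it was 99.71%.

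The start of mt-Nd3 and of its copy show how closely the pairs match. The capital marks the only mismatch of the aligned bases, T3C, counted from 1 at the 5′ end of mt-Nd3, with the mitochondrial base first. The windows are MT:9459-9498 on the plus strand and chr1:24613080-24613119 on the minus strand (GRCm38).
mt-Nd3: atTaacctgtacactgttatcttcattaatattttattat
Gm28438: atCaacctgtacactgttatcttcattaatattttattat

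mt-Atp8 shared only its last 43 bases, 21.1% of its length, with a transcript, and these are also the first bases of mt-Atp6. The rest of mt-Atp8 lies in the interval between mt-Co2 and mt-Atp6, which is 230 bases long on MT, and the interval between the copies Gm28661 and Gm10925 on chromosome 1 is 233 bases long. No sequence of that interval was analysed here. Of the copies on chromosome 1, only Gm10222 was found by its GENCODE M21 identifier among the 36722 genes with values. Gm10222 stayed between 6.17 and 6.35 in all libraries.

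Among the 6 abundant mRNAs, 4 had no stretch in a copy at 99% identity: mt-Nd1, mt-Nd2, mt-Nd5 and mt-Cytb. Neither had mt-Nd6. The remaining abundant mRNAs were covered in part. In mt-Nd4, 876 of 1378 bases (63.6%) were also in Gm28439, leaving 502 outside, and in mt-Co1 the last 483 of 1545 bases (31.3%) were also in Gm29216, leaving 1062 outside. The values of mt-Nd4, mt-Co1 and the mRNAs at the floor other than mt-Atp8 are therefore uncertain. The value of mt-Atp8 is uncertain as well, but 161 of its 204 bases were outside any copy found at 99% identity. The boundary in mt-Co1 is shown with the bases shared with Gm29216 in capitals (MT:6366-6413, plus strand, GRCm38).
mt-Co1: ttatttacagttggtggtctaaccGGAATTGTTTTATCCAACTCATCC

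Less similar copies on chromosome 2 did have values. Gm13340, with 97.6% identity to mt-Co1, had log2 values of 6.85 to 7.22 in fusion protein, 6.86 to 7.44 in combination and 6.64 to 6.85 in vehicle libraries. Gm13341, with 95.91% identity to mt-Co2, had 6.98 to 7.35 in fusion protein, 7.12 to 7.48 in combination and 7.01 to 7.16 in vehicle libraries. The pseudogene of mt-Co2 thus had a higher value than mt-Co2 itself in every library.

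**Figure D1:**
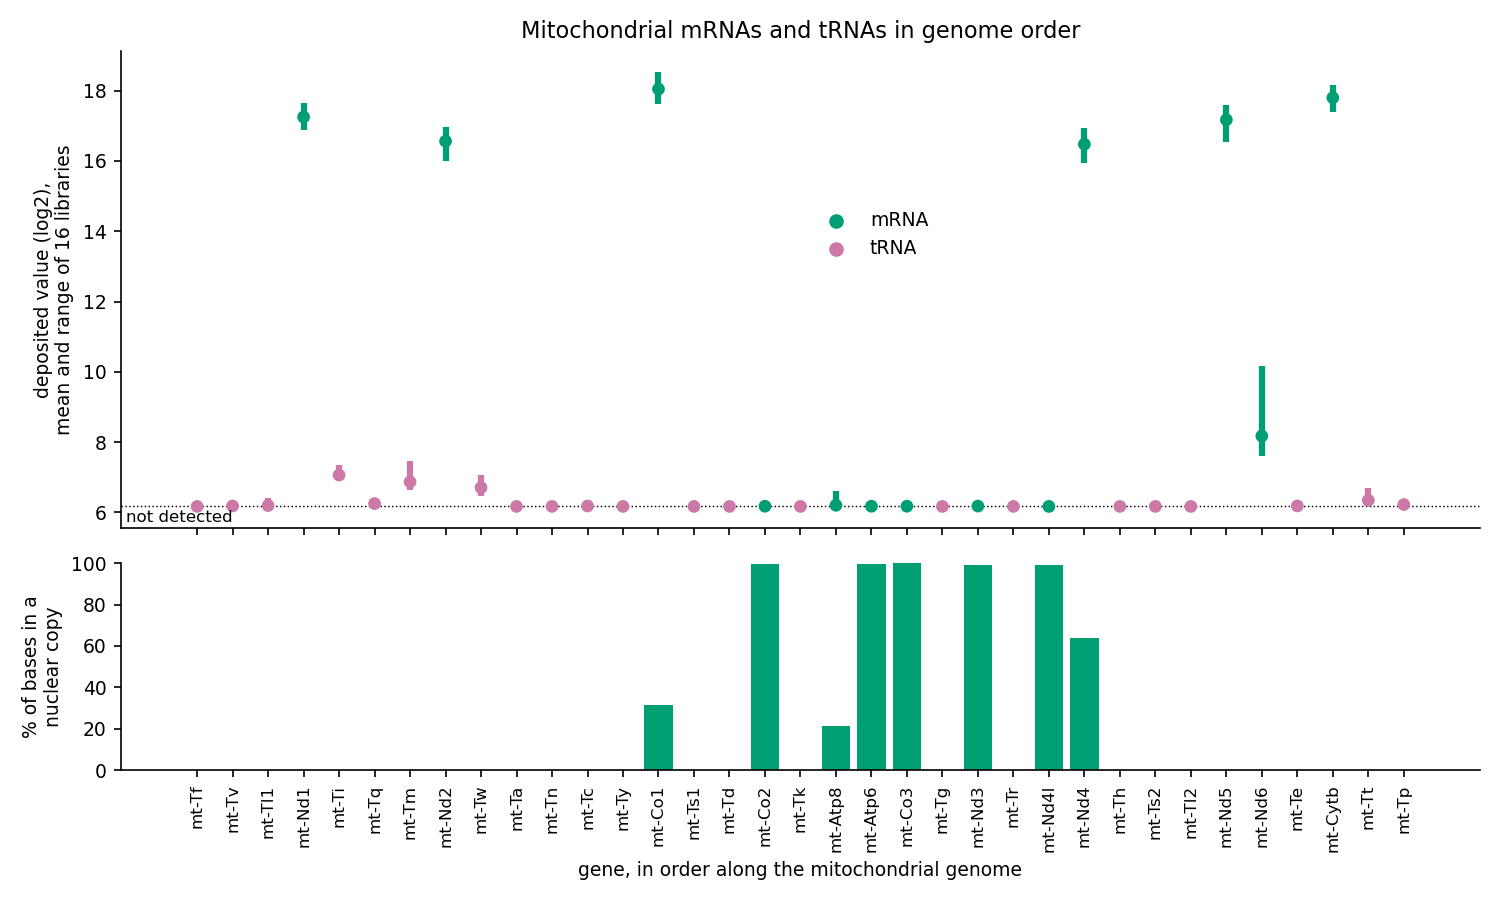
The upper panel plots the deposited log2 value of each of the 13 mRNAs and 22 tRNAs, in genome order, as the mean (point) and range (line) of 16 libraries, with the floor of 6.17 dotted; the lower panel plots the percent of each gene's bases found in a nuclear transcript at 99% identity or more. The 5 genes with bars close to the top of the lower panel lie on the floor, while mt-Nd1, mt-Nd2, mt-Nd5 and mt-Cytb, which have no bar, lie near the top.

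Per kilobase, mt-Cytb had the highest level of the abundant mRNAs in the vehicle group, with 191185 ± 23466 scaled units per kb, followed by mt-Nd1 with 153958 ± 20641 and mt-Co1 with 149837 ± 16247 (SD, n = 5). mt-Nd2 had 98055 ± 13930, mt-Nd5 87782 ± 14905 and mt-Nd4 64617 ± 8576 (SD, n = 5). The neighbours mt-Nd1 and mt-Co1, and mt-Nd2 and mt-Nd5, differed by less than 1 SD. When only bases outside the nuclear copies were counted as length, mt-Co1 came to 217983 ± 23636 and mt-Nd4 to 177375 ± 23542 scaled units per kb, so that mt-Co1 then stood highest and mt-Nd4 moved to the third place. mt-Nd6 had 875 ± 646 scaled units per kb.

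The tRNAs were near or at the floor: 12 of the 22 were at it in all 16 libraries, and 9 more were above it in at least 1 library but below the filter. Only mt-Ti, mt-Tm and mt-Tw were above the floor in all 16 libraries. The genes of these tRNAs for isoleucine, methionine and tryptophan are shown for their place in the genome, each with its anticodon in capitals: all are encoded in the heavy-strand transcript, mt-Ti and mt-Tm between mt-Nd1 and mt-Nd2 (MT:3706-3774 and MT:3845-3913) and mt-Tw directly after mt-Nd2 (MT:4950-5016), on the plus strand of GRCm38. mt-Ti shares its first 2 bases with the end of mt-Nd1, and mt-Tw its first 2 with the end of mt-Nd2.
mt-Ti: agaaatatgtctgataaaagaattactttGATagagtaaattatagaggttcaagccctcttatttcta
mt-Tm: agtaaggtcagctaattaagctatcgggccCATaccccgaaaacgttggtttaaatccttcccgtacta
mt-Tw: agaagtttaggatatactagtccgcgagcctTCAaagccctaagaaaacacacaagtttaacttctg

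mt-Ti, the only tRNA tested, had log2 values of 6.93 to 7.34 with a median of 7.13 in fusion protein libraries, 7.23, 6.98, 6.92, 6.95 and 7.05 in combination libraries, and 6.93, 7.08, 7.02, 7.05 and 7.05 in vehicle libraries. The groups overlapped, with fusion protein replicate 1 highest. The difference was 0.10 ± 0.07 for fusion protein minus vehicle (limma, adjusted p = 0.357), -0.00 for combination minus vehicle (adjusted p = 0.982) and 0.10 for fusion protein minus combination (adjusted p = 0.306). None of the 3 differences had an unadjusted limma p below 0.05.

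mt-Tm had scaled values of 13 to 36 in fusion protein, 15 to 73 in combination and 15 to 37 in vehicle libraries. mt-Tw had 9 to 26 in fusion protein, 14 to 36 in combination and 7 to 19 in vehicle libraries. Every range overlapped the others, and both genes lay below the filter. Of the remaining tRNAs with a signal, mt-Tt was above the floor in 14 libraries, mt-Tq and mt-Tp in 10, mt-Tv, mt-Tl1 and mt-Te in 3 each and mt-Tc in 1, with scaled values of at most 15. The light-strand tRNA mt-Tq overlaps mt-Ti by 3 bases on the other strand, and whether reads were counted by strand is not given in the sources used here.

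mt-Nd6, the complex I subunit gene of the light strand, fell with both treatments. In fusion protein libraries its log2 value was 7.60 to 8.03 with a median of 7.68; the 5 combination libraries had 7.64, 8.38, 7.93, 7.69 and 7.79; the vehicle libraries had 8.75, 9.17, 8.17, 10.17 and 8.70. All 6 fusion protein libraries lay below every vehicle library, whereas combination replicate 2 lay above the lowest vehicle library. As scaled values, mt-Nd6 averaged 105 ± 22.7 in fusion protein, 131 ± 51.6 in combination and 454 ± 335 in vehicle libraries (SD, n = 6, 5 and 5), with 1026 in vehicle replicate 4.

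The difference on the deposited scale was -1.26 ± 0.26 for fusion protein minus vehicle (limma, adjusted p = 0.00294) and -1.11 ± 0.27 for combination minus vehicle (limma, adjusted p = 0.00552; two-sided, adjusted after Benjamini and Hochberg for every gene tested). mt-Nd6 was the only 1 of the 7 tested mRNAs called lower in each; over all tested genes, 13.7% were called lower with the fusion protein and 12.3% with the combination. The share with wholly separate groups and lower values was 6.57% for fusion protein against vehicle. Both comparisons share the vehicle libraries. Without vehicle replicate 4 the difference was -0.97 for fusion protein minus vehicle (limma, adjusted p = 0.00096) and -0.81 for combination minus vehicle (limma, adjusted p = 0.00159).

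Because the transform compresses differences near the floor, the same differences were larger on log2 of the scaled value plus 1: -1.86 for fusion protein minus vehicle and -1.60 for combination minus vehicle. Fusion protein minus combination was -0.16 ± 0.26 for mt-Nd6 (limma, adjusted p = 0.663). The sample labels carry numbers, 1 to 8 and 12 to 19, whose meaning is not stated; all combination libraries, fusion protein replicates 5 and 6 and vehicle replicate 5 have late numbers. Among numbers 1 to 8 alone, fusion protein minus vehicle was -1.29 (limma, adjusted p = 0.0621), and with the late numbers as a covariate combination minus vehicle was -0.94 (limma, adjusted p = 0.0711). The late numbers hold only 1 vehicle library, so combination minus vehicle could not be tested among them; that library had 8.70, above all 5 combination libraries.

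The 3′ ends of mt-Nd6 and mt-Nd5 overlap by 14 bases on opposite strands. The windows below end at the last base of each gene, with the shared bases in capitals, mt-Nd5 at MT:13522-13565 on the plus strand and mt-Nd6 at MT:13552-13595 on the minus strand (GRCm38). Without a stated use of strand, reads from mt-Nd6 and reads antisense to it cannot be told apart.
mt-Nd5: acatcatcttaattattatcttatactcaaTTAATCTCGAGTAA
mt-Nd6: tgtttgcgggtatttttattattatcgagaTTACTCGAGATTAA

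Some other RNAs that were high in the vehicle libraries moved beside mt-Nd6. mt-Rnr1, the mitochondrial 12S rRNA, had log2 values of 11.24 to 13.84 in fusion protein, 11.99 to 13.32 in combination and 13.17 to 15.17 in vehicle libraries, and mt-Rnr1 and mt-Rnr2 together held 0.102% of the scaled sum in fusion protein, 0.0907% in combination and 0.303% in vehicle libraries. Malat1, a nuclear long non-coding RNA, had 12.33 to 13.30 in fusion protein, 12.73 to 13.97 in combination and 13.69 to 14.65 in vehicle libraries. Neat1, another nuclear long non-coding RNA, did not pass in either comparison with vehicle, and its groups overlapped. It differed by -0.38 ± 0.14 with the fusion protein (limma, adjusted p = 0.0602) and by -0.31 ± 0.15 with the combination (adjusted p = 0.111). Lars2, the mitochondrial leucyl-tRNA synthetase, had 9.27 to 12.21 in fusion protein, 9.67 to 11.19 in combination and 11.97 to 15.07 in vehicle libraries.

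The order of the vehicle libraries differed between these RNAs. mt-Nd6 was highest in vehicle replicate 4, mt-Rnr1 and Lars2 were highest in vehicle replicate 1, and Malat1 was highest in vehicle replicate 2. In the treated groups the top library was mostly shared. Fusion protein replicate 1 was the highest of its group for mt-Nd6 (8.03), mt-Rnr1 (13.84), Lars2 (12.21) and Malat1 (13.30). Combination replicate 2 was the highest of its group for mt-Nd6 (8.38), mt-Rnr1 (13.32) and Malat1 (13.97). Lars2 was highest in combination replicate 1 (11.19). The part of these RNAs, or of what moves with them, in the difference of mt-Nd6 was not tested.

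**Figure D2:**
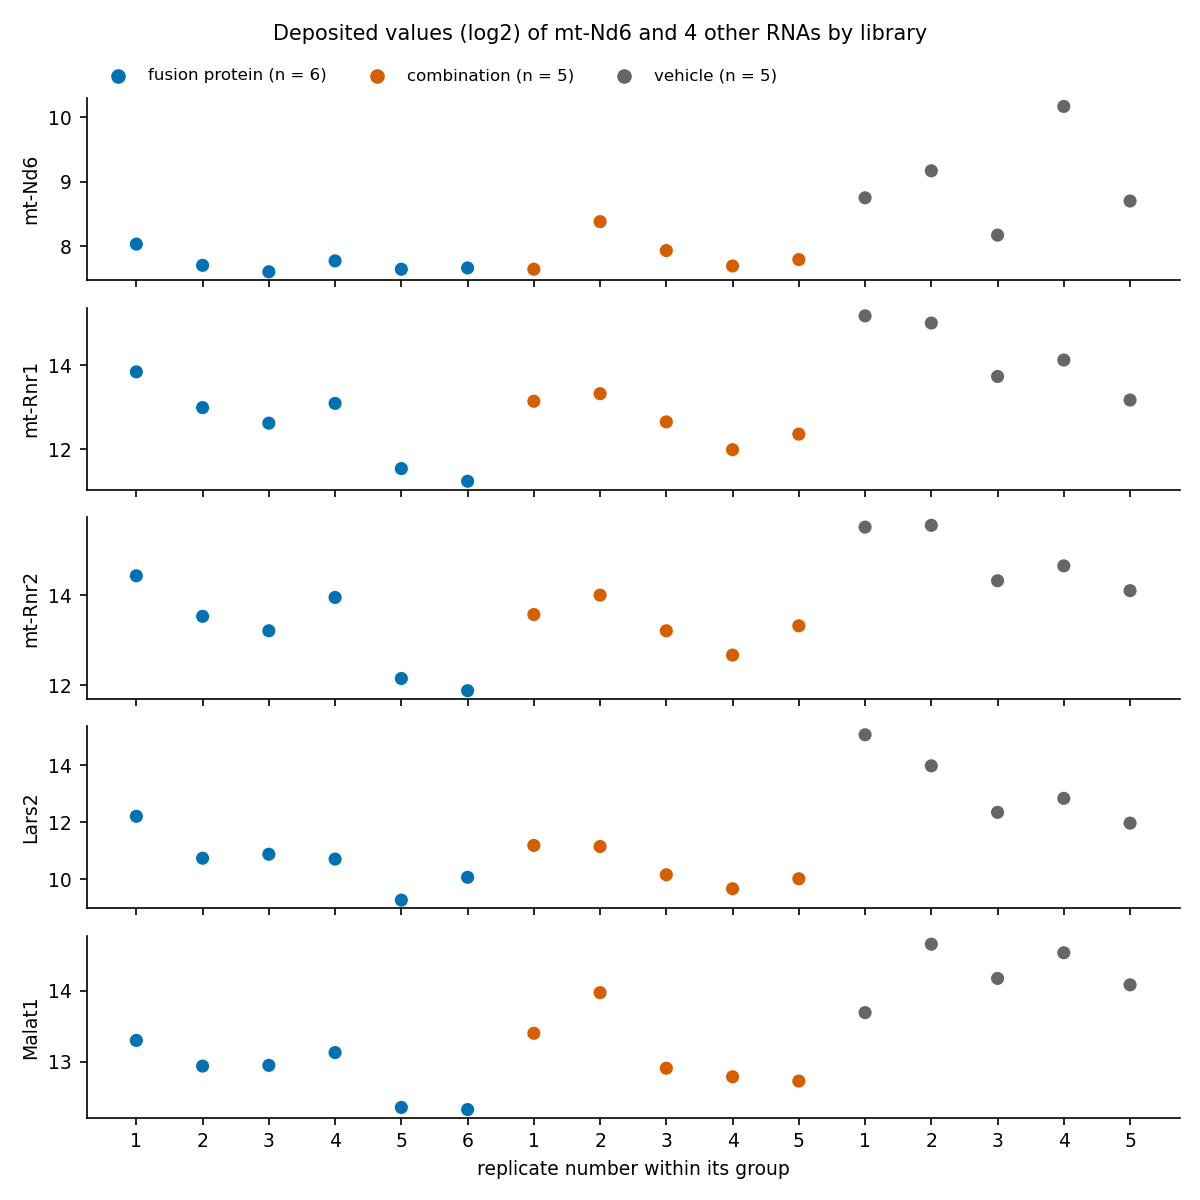
Each panel plots the deposited log2 value of one RNA in each of the 16 libraries, by replicate number within fusion protein, combination and vehicle groups. The fusion protein libraries of mt-Nd6 lie at 7.60 to 8.03, below the vehicle libraries at 8.17 to 10.17, and the vehicle library with the highest mt-Nd6 is not the one with the highest mt-Rnr1, Lars2 or Malat1. Fusion protein replicate 1 is the highest of its group in every panel, and combination replicate 2 in every panel except that of Lars2.

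mt-Co1 rose with the combination. It had log2 values of 18.48, 18.45, 18.20, 18.13 and 18.52 in combination libraries, against 17.61, 17.91, 17.74, 18.02 and 17.79 in vehicle libraries, and every combination library lay above every vehicle library. The difference was 0.54 ± 0.11 (limma, adjusted p = 0.000967), or 1.46-fold, from a scaled value of 337555 ± 41152 in combination and 231498 ± 25102 in vehicle libraries (SD, n = 5 each). It was the only 1 of the 7 tested mRNAs called higher, against 24.2% of all tested genes called higher in this comparison and 15.1% with wholly separate groups and higher values.

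The call for mt-Co1 depended on how the libraries were scaled. Once each library was corrected for its GC content and length trends, combination minus vehicle was 0.20 (limma, adjusted p = 0.129), and under quantile normalization it was -0.00, a setting that fixes the top-ranked gene of each library at one value.

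With the fusion protein, mt-Co1 had 17.75 to 18.25 with a median of 17.97, overlapping the vehicle libraries, and a difference of 0.17 ± 0.11 (limma, adjusted p = 0.249). No mRNA was called higher with the fusion protein, and none had an unadjusted limma p below 0.05 in that direction; 12.0% of all tested genes were called higher.

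The other 5 abundant mRNAs did not pass the test against vehicle with either treatment. For fusion protein minus vehicle the differences were -0.33 ± 0.15 for mt-Nd5 (limma, adjusted p = 0.11), -0.20 ± 0.15 for mt-Nd2 (adjusted p = 0.321) and between -0.09 and 0.00 for mt-Nd4, mt-Cytb and mt-Nd1. For combination minus vehicle they were 0.29 ± 0.13 for mt-Nd1 (limma, adjusted p = 0.076), 0.27 ± 0.13 for mt-Cytb (adjusted p = 0.0951), 0.25 ± 0.15 for mt-Nd4 (adjusted p = 0.201), and 0.05 and 0.08 for mt-Nd2 and mt-Nd5. These calls and some directions depended on the setting. With the GC content and length trends removed, mt-Nd2 (-0.48, limma, adjusted p = 0.012), mt-Nd5 (-0.55, adjusted p = 0.00453) and mt-Cytb (-0.31, adjusted p = 0.0315) were called lower with the fusion protein, and all 5 differences for combination minus vehicle were negative, between -0.34 and -0.09, without passing. With a term for the late label numbers, mt-Nd1, mt-Nd4 and mt-Cytb were called higher with the combination, each at 0.49, with limma adjusted p of 0.0217, 0.0414 and 0.0192. With array weights, mt-Nd2 (-0.38) and mt-Nd5 (-0.52) were called lower with the fusion protein. mt-Nd5 was also called lower with it under quantile normalization (-0.27), where mt-Co1 and mt-Cytb were both at 0.00. That setting gives each gene a value set by its rank in the library, so it compares ranks of these abundant mRNAs and not their levels.

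Over the 7 tested mRNAs the median difference was -0.09 with the fusion protein and 0.25 with the combination, beside -0.02 and 0.06 over all tested genes.

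**Figure D3:**
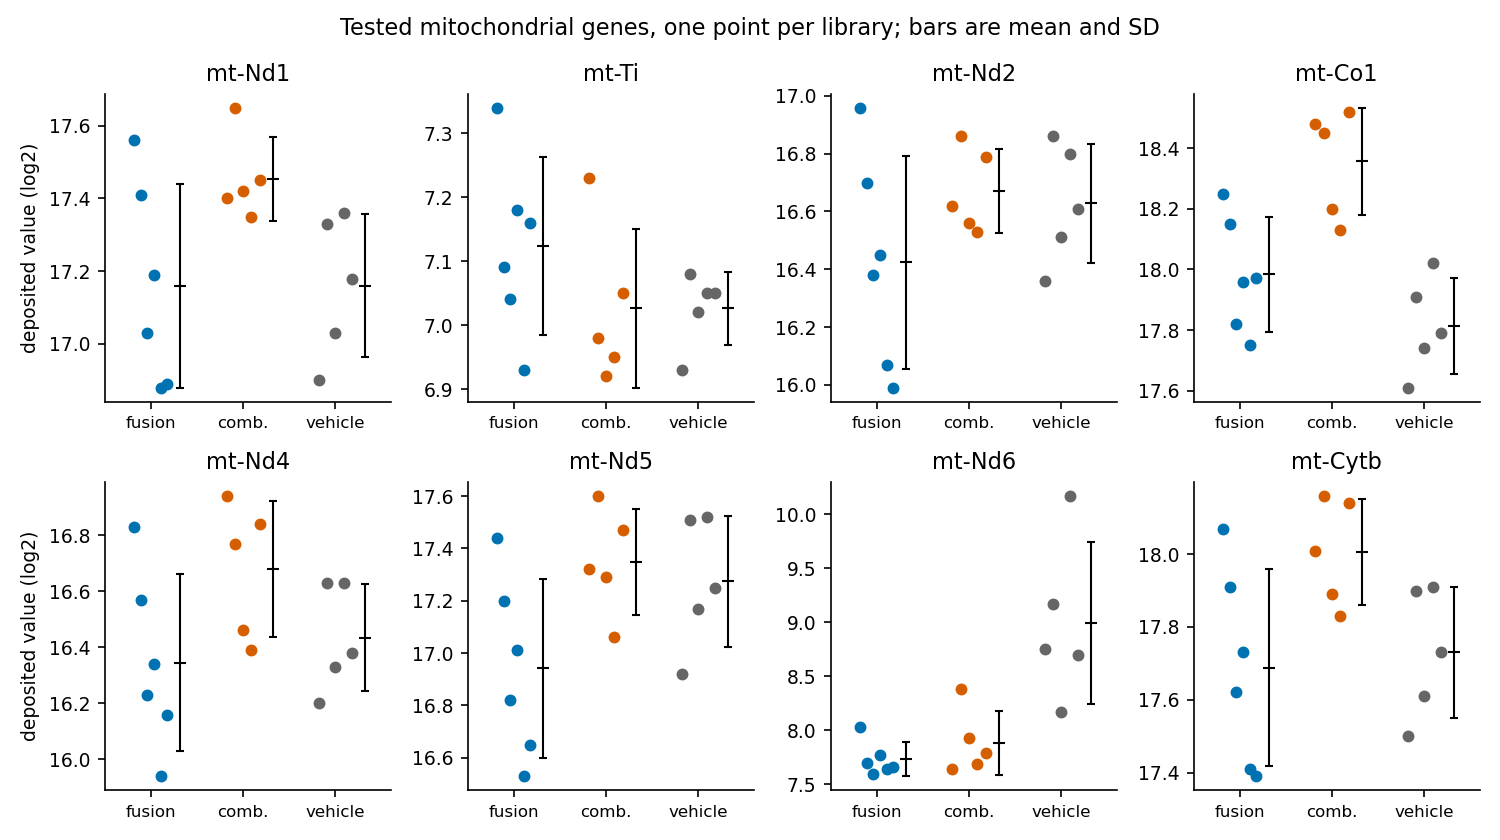
Each panel plots the deposited log2 value of one tested gene, in genome order, with a point per library for fusion protein (n = 6), combination (n = 5) and vehicle (n = 5) and the mean and SD beside them; the axes differ between panels. The combination libraries of mt-Co1 (18.13 to 18.52) lie above the vehicle libraries (17.61 to 18.02), and the vehicle libraries of mt-Nd6 reach 10.17.

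Between the treatments, mt-Co1 and mt-Nd5 were lower with the fusion protein than with the combination. mt-Co1 differed by -0.37 ± 0.11 (limma, adjusted p = 0.0172), with 4 of 6 fusion protein libraries below every combination library. mt-Nd5 had 16.53 to 17.44 with a median of 16.91 in fusion protein libraries and 17.32, 17.60, 17.29, 17.06 and 17.47 in combination libraries, a difference of -0.41 ± 0.15 (limma, adjusted p = 0.0473).

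These 2 of 7 stand beside 22.2% of all tested genes called lower in fusion protein minus combination, and 29.5% called in either direction. The other 5 also had negative differences without passing: -0.31 for mt-Cytb (limma, adjusted p = 0.0539), -0.29 for mt-Nd1 (adjusted p = 0.0726), -0.34 for mt-Nd4 (adjusted p = 0.0741), -0.25 for mt-Nd2 (adjusted p = 0.192) and -0.16 for mt-Nd6. The median of the 7 was -0.31, beside -0.09 over all tested genes. None was called higher, and none had an unadjusted limma p below 0.05 in that direction; 7.35% of all tested genes were called higher.

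The mt-Co1 call was also lost with the GC content and length trends removed (-0.26, limma, adjusted p = 0.0609). It was lost as well with those and the late label number together (-0.30, limma, adjusted p = 0.0936). Quantile normalization, which cannot test mt-Co1, gave 0.00. In each of these settings 0 of the 7 mRNAs were called lower. The size of this contrast moved with single libraries. Without combination replicate 2, 0 of the 7 mRNAs were called lower, and mt-Co1 was at -0.35 (limma, adjusted p = 0.05); without fusion protein replicate 1, 6 were called lower. All genes called in this comparison numbered 1999 to 5247 over the single omissions. The mt-Nd5 call was lost in 11 of the 16 single omissions. Among label numbers 12 to 19 alone, with 2 fusion protein and 5 combination libraries, 6 of the 7 were called lower, by 0.57 for mt-Nd1 and 0.64 for mt-Nd2. In that setting 2462 of the 13385 tested genes were called lower. Its 2 fusion protein libraries, replicates 5 and 6, had the lowest means of the 6 abundant mRNAs among the 16 libraries.

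**Figure D4:**
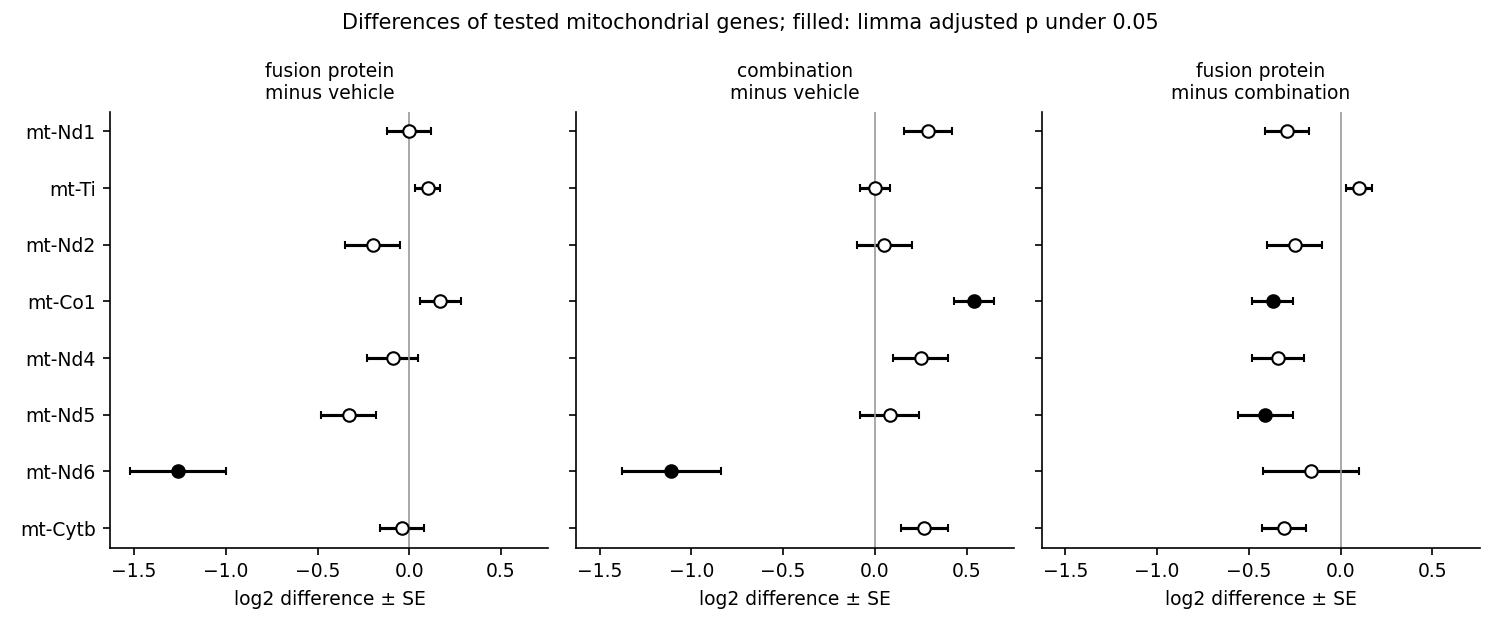
The 3 panels plot the log2 difference (point) and limma SE (bar) of each tested mitochondrial gene for fusion protein minus vehicle, combination minus vehicle and fusion protein minus combination; filled points have an adjusted p below 0.05. mt-Nd6 stands at -1.26 and -1.11 in the comparisons with vehicle, and mt-Co1 at 0.54 for combination minus vehicle.

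The 6 abundant mRNAs moved together from library to library. Their pooled within-group SD was 0.18 to 0.28 on the log2 scale, and 0.03 for mt-Cytb to 0.10 for mt-Co1 once the mean of the 6 was taken from each library. The mean of the 6 deviated from the average over all libraries by -0.45 in fusion protein replicate 5 and -0.38 in replicate 6, the lowest of the 16, and by 0.36 in combination replicate 2, the highest. Fusion protein replicates 5 and 6 also had the lowest rRNA shares of the scaled sum, 0.041% and 0.0332%, and the lowest Malat1. Whether these share a source was not tested.

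Set against mt-Cytb within each library, the abundant mRNAs showed a second pattern, which was chosen after the values were seen and is given without a test. The log2 difference mt-Co1 minus mt-Cytb was 0.18 to 0.58 in fusion protein, 0.30 to 0.47 in combination and 0.01 to 0.13 in vehicle libraries, so both treated groups lay above vehicle. For mt-Nd5 minus mt-Cytb it was -0.88 to -0.63 in fusion protein, -0.76 to -0.55 in combination and -0.58 to -0.38 in vehicle libraries. For mt-Nd2 minus mt-Cytb it was -1.40 to -1.11 in fusion protein, -1.39 to -1.30 in combination and -1.15 to -1.05 in vehicle libraries.

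Thus mt-Nd5 lay below vehicle in the fusion protein group without overlap and mt-Nd2 in the combination group without overlap; in each case the other treated group overlapped vehicle. mt-Nd1 minus mt-Cytb overlapped between the groups, with -0.59 to -0.50 in fusion protein, -0.69 to -0.47 in combination and -0.60 to -0.55 in vehicle libraries, and mt-Nd4 minus mt-Cytb overlapped as well. A ratio between genes shows unequal change and not which gene changed. How many of all tested genes separate the groups when set against mt-Cytb was not computed, so no share stands beside these separations.

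**Figure D5:**
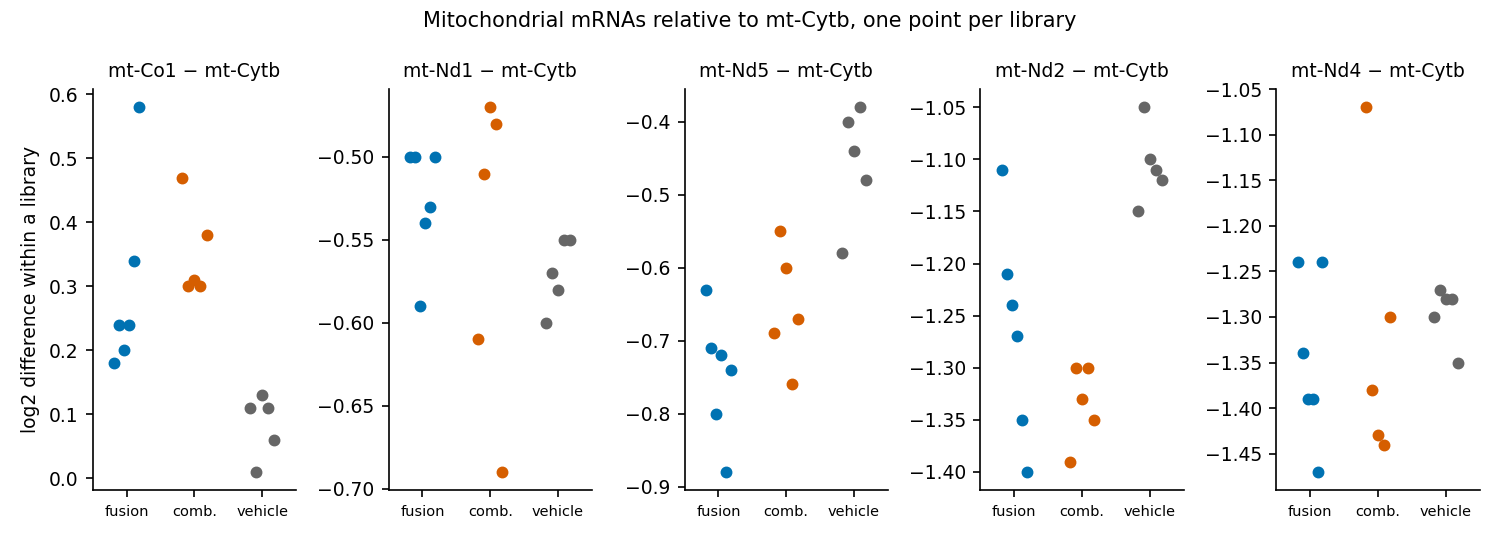
Each panel plots the log2 difference between one abundant mRNA and mt-Cytb within a library, with a point per library for fusion protein (n = 6), combination (n = 5) and vehicle (n = 5). mt-Co1 minus mt-Cytb is at most 0.13 in vehicle libraries and at least 0.18 in treated ones, while mt-Nd1 minus mt-Cytb overlaps between groups.

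The other subunits of the same complexes are encoded in the nucleus. Of 75 tested nuclear genes for respiratory complex subunits, 42 rose and 0 fell with the fusion protein, and 40 rose and 0 fell with the combination; at an unadjusted limma p below 0.05, 55 were higher and 0 lower with the fusion protein, and 43 higher and 0 lower with the combination. Of all tested genes, 12.0% were called higher with the fusion protein and 24.2% with the combination. The median difference of the 75 was 0.31 with the fusion protein and 0.27 with the combination, beside -0.02 and 0.06 over all tested genes. Between the treatments, 4 were higher and 10 lower with the fusion protein, where 7.35% of all tested genes were called higher and 22.2% lower, and the median was 0.00, beside -0.09 over all tested genes. The results for nuclear genes here and below come from the main setting alone. Their dependence on the alternative settings was not tested. Over all tested genes, 3240 were called higher with the combination. This number was 915 with the GC content and length trends removed together with the late label number. With the fusion protein, the numbers in these settings were 1610 and 1729.

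Of complex I, 19 of 36 nuclear subunit genes rose with the fusion protein and 18 with the combination. Ndufa5, an accessory subunit of the complex, rose by 0.41 ± 0.06 with the fusion protein (limma, adjusted p = 0.000102) and by 0.65 ± 0.06 with the combination (adjusted p = 1.7e-06), and Ndufb3, another accessory subunit, by 0.45 ± 0.06 with the fusion protein (adjusted p = 7.89e-05) and 0.57 ± 0.07 with the combination (adjusted p = 9.14e-06). In complex III, 4 of 9 rose with each treatment, and the median difference of the 9 was 0.33 with the fusion protein and 0.02 with the combination. Uqcrb, a small subunit of it, rose by 0.66 ± 0.07 with the fusion protein (limma, adjusted p = 1.56e-05) and by 0.84 ± 0.08 with the combination (adjusted p = 1.69e-06). In complex IV, 8 of 11 rose with the fusion protein and 7 with the combination, among them Cox6b1, by 0.34 ± 0.07 with the fusion protein and 0.52 ± 0.07 with the combination.

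The ATP synthase, whose mitochondrial mRNAs were at the floor, had 8 of 15 tested nuclear subunit genes higher with each treatment. Atp5h, a stalk subunit, rose by 0.44 ± 0.06 with the fusion protein (limma, adjusted p = 7.52e-05) and by 0.54 ± 0.06 with the combination (adjusted p = 9.71e-06). Complex II, which has no mitochondrially encoded subunit, had 3 of 4 genes higher with each treatment, led by Sdha, its flavoprotein, with the combination (0.48 ± 0.07, limma, adjusted p = 4.33e-05).

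Of 16 tested genes for mitochondrial transcription and its regulators, 1 rose and 2 fell with the fusion protein, and 3 rose and 4 fell with the combination. Polrmt, the mitochondrial RNA polymerase, fell by 0.57 on the log2 scale with the combination (SE 0.14, limma, adjusted p = 0.00339) and differed by -0.17 ± 0.13 with the fusion protein (adjusted p = 0.357). Tfb1m, which methylates the 12S rRNA, rose with the fusion protein (0.17 ± 0.06, limma, adjusted p = 0.0428) and with the combination (0.33 ± 0.06, adjusted p = 0.000718). Ppargc1a, a coactivator of mitochondrial biogenesis, fell by 0.36 with the fusion protein (SE 0.11, limma, adjusted p = 0.0253) and differed by 0.04 with the combination (adjusted p = 0.813). Tfam, which packages and helps transcribe mitochondrial DNA, differed by 0.03 with the fusion protein and 0.15 with the combination, without passing in either.

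Genes for processing and stability of mitochondrial RNA showed 5 of 23 higher and 0 lower with the fusion protein, and 12 higher and 1 lower with the combination; at an unadjusted limma p below 0.05, 7 were higher and 1 lower with the fusion protein, and 14 higher and 1 lower with the combination. Slirp, the partner of Lrpprc in stabilising mitochondrial mRNAs, rose by 0.29 ± 0.07 with the fusion protein (limma, adjusted p = 0.00644) and by 0.46 ± 0.08 with the combination (adjusted p = 0.000189). Hsd17b10, a subunit of the enzyme that cuts the 5′ ends of mitochondrial tRNAs, rose by 0.38 ± 0.10 with the fusion protein and 0.51 ± 0.10 with the combination. Lrpprc itself was lower with the fusion protein than with the combination (-0.23 ± 0.07, limma, adjusted p = 0.027), one of 5 such genes among the 23, a share close to the 22.2% of all tested genes called lower in that comparison.

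Of 17 tested tRNA modification genes, 2 rose with the fusion protein and 0 fell (2 and 1 at an unadjusted limma p), while 6 rose and 2 fell with the combination. Trnt1, which adds the CCA end, rose by 0.29 ± 0.10 with the fusion protein (limma, adjusted p = 0.0469). Nsun3, which modifies the anticodon of mt-Tm, rose by 0.32 ± 0.08 with the combination (adjusted p = 0.0052). Of 22 aminoacyl-tRNA synthetase genes, 4 rose and 1 fell with the fusion protein and 8 rose and 3 fell with the combination. Lars2 fell by 2.59 with the fusion protein and fell by 2.80 with the combination on the log2 scale.

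Of 11 genes for replication of mitochondrial DNA, 0 rose and 0 fell with the fusion protein (1 and 2 at an unadjusted limma p), and 3 rose with the combination, among them Ssbp1, the single-stranded DNA binding protein (0.26 ± 0.06, limma, adjusted p = 0.00372). Of 12 tested genes of the mitochondrial stress response, 4 rose and 0 fell with the fusion protein (7 and 1 at an unadjusted p), and 5 rose and 2 fell with the combination; Hspa9, a mitochondrial chaperone, rose by 0.44 ± 0.09 with the combination (limma, adjusted p = 0.000642). All of these nuclear counts stand beside 25.8% of all tested genes called in either direction with the fusion protein and 36.5% with the combination.

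Some cell type markers passed the test as well. Of 10 sensory neuron markers, 1 rose and 0 fell with the fusion protein (1 and 0 at an unadjusted limma p), 3 rose and 1 fell with the combination, and 0 were higher and 2 lower with the fusion protein than with the combination (2 and 2 at an unadjusted limma p). The shares of all tested genes were 12.0% higher and 13.7% lower with the fusion protein, 24.2% and 12.3% with the combination, and 7.35% and 22.2% between the treatments. Across the 10 markers the median difference was 0.10 with the fusion protein, 0.02 with the combination and 0.09 for fusion protein minus combination. Over all tested genes the medians were -0.02, 0.06 and -0.09. Snap25, a protein of synaptic vesicle fusion, was at 0.43 ± 0.09 for combination minus vehicle (limma, adjusted p = 0.00119) and at -0.35 ± 0.09 for fusion protein minus combination (adjusted p = 0.00959); Isl1, a transcription factor of sensory neurons, was at 0.25 ± 0.06 for combination minus vehicle and -0.21 ± 0.06 for fusion protein minus combination. Calca, the gene of the neuropeptide CGRP, rose by 0.43 ± 0.09 with the fusion protein and 0.35 ± 0.09 with the combination. Of 6 satellite glia markers, 4 were higher with the combination than with vehicle, led by Fabp7 at 0.84 ± 0.15 (limma, adjusted p = 0.000396), and 4 were lower with the fusion protein than with the combination, against the same 24.2% and 22.2% of all tested genes. One of the 6, Kcnj10, fell by 0.49 with the fusion protein against vehicle (SE 0.13, limma, adjusted p = 0.00894). The satellite glia markers summed to scaled values of 42955 to 78393 in fusion protein, 50469 to 59897 in combination and 42070 to 60932 in vehicle libraries. Of 6 macrophage markers, 4 were higher with the fusion protein than with vehicle, against 12.0% of all tested genes, and 2 were higher than with the combination, against 7.35%. The list summed to 1352 to 2329 in fusion protein, 1163 to 1600 in combination and 973 to 1650 in vehicle libraries. The part of cell composition in the levels of mt-Co1, the other mRNAs or the nuclear subunits was not tested.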

How the data were processed

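RNA from 16 lumbar DRG samples was grouped by the treatment in the sample labels. Per the submitters' processing notes, FastQC, STAR, HTSeq, DESeq2 and build GRCm38 were used; versions, the handling of reads with several matches and the use of strand are not given in the sources used here. The authors deposited log2 values after a variance-stabilising transform, and the GC content column is in percent per the file headers. Deposited columns of p-values do not name a comparison and were not used. Inverting the transform from its lowest value (5.99) gave whole numbers, within 0.01, for 100% of values; these are the scaled values, of which 34 decode to 0. The scaling done before is not stated, so depth and counting error are unknown.

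Tested genes had an average over the libraries that exceeded the lowest value of the table by 1 or more on the log2 scale. limma 3.58.1 in R 4.3.3 (trend and robust, all 3 groups in one model, two-sided) was used with Benjamini-Hochberg adjustment over 13385 genes and a threshold of 0.05, after it was tested on simulated data. Mitochondrial transcripts of GENCODE M21 were aligned to the other transcripts with blastn 2.17.0. Identifiers of 36345 genes matched GENCODE. Python 3.11.15 was used for all else.

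All mRNAs, the tRNAs past the filter and up to 3 called members with the lowest p of each nuclear list are eligible to be named. mt-Tm, mt-Tw, the remaining tRNAs with a signal and Tfam were added after their values were seen. So were the cell type markers, Malat1, Neat1 and the ratios to mt-Cytb. The members and lists were chosen with earlier results of these data known. Alternatives covered the filter, scaling, log scale, weights, model, label number, replicate block, GC content and length trends, and single omissions; the trends together with the label number were added after seeing the data.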

Additional observations from a re-analysis of the deposited data

How the results depend on the processing

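Of the tested members under each alternative, 543 values stayed on their side of the threshold without a change of sign (8 of them at 0.00), 37 newly passed it, 27 no longer passed it and 22 changed sign. These counts leave out 2 differences of 0.00, which have no direction: mt-Nd1 in fusion protein minus vehicle (-0.28 to 0.14, called higher under quantile normalization) and mt-Ti in combination minus vehicle (-0.24 to 0.05). Quantile normalization sets each value by its rank in the library. Where no cause is named, it was not tested. mt-Nd6 was lower than in vehicle libraries under each alternative run for both treatments, and missed the threshold in the 2 settings with label numbers given in the report. Single omissions gave -1.47 to -0.97 for fusion protein minus vehicle and -1.31 to -0.81 for combination minus vehicle, and 0.49 to 0.60 for mt-Co1 in combination minus vehicle.

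All genes called in fusion protein minus vehicle numbered 3450, against 6106 with array weights, 2163 among label numbers 1 to 8, and 2543 to 3749 in single omissions. In combination minus vehicle they numbered 4891, against 1681 with the GC content and length trends removed together with the label number, and 4033 to 5369. In fusion protein minus combination they numbered 3950, against 2383 under quantile normalization, 6275 with array weights, 1579 with the trends removed, 896 with both, and 1999 to 5247. The higher share of calls there was 24.9%, against 40.8% under quantile normalization, 41.8% with the trends removed, 50.1% with both and 36.1% among label numbers 12 to 19; in combination minus vehicle it was 66.2%, against 54.4% with both.

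Of the mRNAs in fusion protein minus vehicle, 1 was higher and 2 lower under quantile normalization, 3 lower with array weights, 0 among label numbers 1 to 8, 4 with the trends removed and 4 with both (single omissions 0 to 0 higher, 1 to 2 lower; 2 without vehicle replicate 1 or fusion protein replicate 1). In combination minus vehicle, 2 were higher in a fit of 2 groups, 4 with the label number, 0 with the trends removed and 0 with both (single omissions 1 to 2; 2 without vehicle replicate 4 or fusion protein replicate 1), 0 were lower with the label number, and 1 tRNA, mt-Tq, was lower with no filter. In fusion protein minus combination, 1 was lower with no filter, median centring, a 2-group fit or the replicate block, 0 under quantile normalization, with the trends removed or with both, 4 with array weights, and 6 with the label number or among numbers 12 to 19 (single omissions 0 to 6). mt-Nd5 there lost its call without vehicle replicates 2, 3 or 5, fusion protein replicates 3 to 6, or combination replicates 1, 2, 3 or 5, with values within -0.51 to -0.32.

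Signs changed for mt-Ti with the trends removed (-0.17) and with both (-0.17), for mt-Co1 likewise (-0.07 and -0.06), for mt-Nd4 (0.04) and mt-Cytb (0.10) among label numbers 1 to 8, all in fusion protein minus vehicle, where mt-Cytb without fusion protein replicate 5 or 6 was 0.01 and 0.02 (range -0.12 to 0.02). In combination minus vehicle, the trends removed gave -0.09 for mt-Nd1, -0.34 for mt-Nd2, -0.12 for mt-Nd4, -0.28 for mt-Nd5 and -0.10 for mt-Cytb; both gave -0.10 for mt-Nd2 and -0.07 for mt-Nd5; array weights gave -0.09 for mt-Nd2 and -0.08 for mt-Nd5; quantile normalization gave -0.11 for mt-Nd5; without vehicle replicate 1 mt-Nd2 was -0.02 (-0.02 to 0.10) and mt-Nd5 -0.01 (-0.01 to 0.15). In fusion protein minus combination, quantile normalization gave 0.03 for mt-Nd1. mt-Co1 there was 0.00 under quantile normalization, -0.26 with the trends removed and -0.30 with both.

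Deviations of same-numbered samples correlated from -0.196 to 0.598 across genes, highest for replicate 2 of combination and vehicle. These mixed values do not decide whether the replicate numbers of the labels pair the samples. With the replicate block, mt-Cytb in fusion protein minus vehicle was 0.02 and mt-Nd5 in fusion protein minus combination -0.35 (limma, adjusted p = 0.10). Depth is unknown, so no limit of detection is given for the genes at the floor.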
